A study of Homo sapiens with 6 samples.

Results

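The genes that set or mark the choice between epithelial and mesenchymal states were followed in liver metastases of a colorectal cancer cell line. They were taken by symbol: the mesenchymal repressors ZEB1, ZEB2, SNAI1, SNAI2 and TWIST1, the epithelial transcription factors GRHL2 and OVOL1, the epithelial splicing factors ESRP1 and ESRP2, and the filament gene VIM. These are 10 of the 58884 gene identifiers in the count table, and each symbol matched 1 identifier. Of the 10, 6 had enough counts to be tested, among 15804 genes tested in all.

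The cells were SW480, an established human colorectal cancer line, in a control form (sgCtrl) and in a form with guide RNA to knock out ITPR3 (sgITPR3), the gene of an intracellular calcium channel. Both forms were given to immunodeficient NSG mice by way of the portal circulation, and the liver tumours that formed were dissociated with collagenase IV and depleted of mouse cells. Polyadenylated RNA was then sequenced as 3′ tags in 3 libraries of each group. The labels give the knockout as checked by Western blot. They do not name the guide sequences, the number of knockout lines or clones, the age of the mice, the time of harvest or which animal gave which library. The p-values therefore measure only the spread between these libraries, which may be technical in part.

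In an epithelial-mesenchymal transition, cells lose junctions and apical-basal polarity and gain a migratory form. ZEB, SNAI and TWIST proteins bind E-box sequences and silence junction genes such as CDH1, while GRHL2 and OVOL1 hold the epithelial programme and repress ZEB1. ESRP1 and ESRP2 give the epithelial pattern of exon inclusion, microRNAs of the miR-200 family repress ZEB1 and ZEB2, and vimentin is the intermediate filament most used to mark mesenchymal cells. SW480 is known as a carcinoma line that expresses vimentin.

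The sequence through which the miR-200 family meets the ZEB genes is shown because the host transcript of 2 of its members was counted in the same libraries. The 5 mature forms below are from RefSeq (GRCh38.p14), written 5′ to 3′ with the seed, bases 2 to 8, in capitals. They fall into 2 seed groups.
hsa-miR-200b-3p: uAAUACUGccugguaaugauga
hsa-miR-200c-3p: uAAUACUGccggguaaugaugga
hsa-miR-429: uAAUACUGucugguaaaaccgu
hsa-miR-141-3p: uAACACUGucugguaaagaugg
hsa-miR-200a-3p: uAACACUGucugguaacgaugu

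The complement of the first seed is CAGTATT and that of the second is CAGTGTT. In the 3′ UTR of ZEB1 (GENCODE 29 transcript ENST00000361642.9, 2549 bases), CAGTATT occurred 6 times and CAGTGTT 3 times on the transcript strand. Among 3409 annotated 3′ UTRs at least as long, read over the same first 2549 bases, 27.8% held CAGTATT at all, and the 0.0293% that held it as often is ZEB1 itself. For CAGTGTT these shares, ZEB1 included, were 31.1% and 0.997%. The 6 places in ZEB1 are given on the plus strand of GRCh38 with the seed match in capitals.
chr10:31527618-31527647: attgttttatcttatCAGTATTatcactct
chr10:31527712-31527741: atgctaaatccgcttCAGTATTttattatg
chr10:31528141-31528170: gtaagtgccatttctCAGTATTttcaaggc
chr10:31528492-31528521: ctgatttttacctatCAGTATTattttatt
chr10:31528562-31528591: tgtcttcaaacctggCAGTATTaataccct
chr10:31529213-31529242: tcttttcatcattatCAGTATTttctttgg

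The 3′ UTR of ZEB2 (5370 bases) held CAGTATT 5 times and CAGTGTT 4 times. Among 811 annotated 3′ UTRs at least as long, read over the same first 5370 bases, 48.5% held CAGTATT at all. The share that held it as often, ZEB2 included, was 0.123%. For CAGTGTT these shares were 51.3% and 1.23%. A match is a run of letters and does not show that the site was used. Mature microRNAs are not measured in polyadenylated 3′ tags.

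VIM was the most strongly counted of the 10 genes, and its promoter is shown because the gene differed between the groups. The window runs over the 250 bases before the RefSeq start at chr10:17227991-17228240, plus strand, GRCh38.p14. Capitals mark a GC box, GGGCGG, which 42.6% of 35116 RefSeq promoter windows hold on either strand.
VIM promoter: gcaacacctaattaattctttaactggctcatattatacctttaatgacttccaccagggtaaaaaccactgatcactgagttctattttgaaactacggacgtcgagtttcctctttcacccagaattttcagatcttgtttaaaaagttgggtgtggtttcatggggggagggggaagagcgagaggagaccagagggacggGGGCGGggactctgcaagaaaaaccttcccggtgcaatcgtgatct

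The letters of the ZEB and SNAI E-box, CACCTG, were searched on both strands and were not in this window, while 17.5% of all windows held them. They were found in 2 of the 7 ZEB1 windows and not in the single ZEB2 window. Only 3 of the 10 genes had a window in the table used. Nothing follows from an absent match about the factor that binds it.

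Library totals ran from 19140055 to 23943797 counts, and a single count was worth 0.0405 to 0.0538 CPM (counts scaled to the size of the library). ITPR3 was lower in every sgITPR3 library, at 98.5 ± 7.77 CPM in sgCtrl and 42.2 ± 3.58 CPM in sgITPR3 (SD, n = 3; log2 fold change -1.22, edgeR adjusted p = 1.28e-07). The tag lies at the 3′ end of the transcript and need not cover the cut site. The tumour line was recognisable by EPCAM, KRT8, KRT18, KRT19 and CDX2. Of 15 markers of SW480 and colorectal epithelium, VIM among them, 6 were below 1 CPM in every library (KRT20, CEACAM5, CEACAM6, CDX1, CDH17 and GPA33). Levels of ALB, the main plasma protein of hepatocytes, were uneven, at 33.8, 169.7 and 21.6 CPM in sgCtrl and 231.6, 152.6 and 111.5 CPM in sgITPR3. Across all 15804 genes 23.5% passed the edgeR test at an adjusted p under 0.05, 11.6% as higher and 11.9% as lower in sgITPR3, and the median log2 fold change was 0.000859. Those shares stand for 1835 and 1882 genes, which were 1135 and 1196 without sgITPR3 replicate 2. The groups did not overlap, with sgITPR3 above, for 19.6% of genes and, with sgITPR3 below, for 19.7%. No batch is named in the labels.

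Of the 6 tested switch genes, ESRP2 and VIM fell in sgITPR3 and none rose. This is 2 lower and 0 higher of 6, beside 11.9% and 11.6% of all genes, and with so few genes the shares cannot be ranked. DESeq2 and limma-voom also called 0 higher, and 0 were higher at an unadjusted p under 0.05. ZEB1, SNAI1, SNAI2 and ESRP1 did not pass, and their groups overlapped. ZEB2, TWIST1, GRHL2 and OVOL1 were too sparse to test, at 12 counts or fewer in any library.

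**Figure D1:**
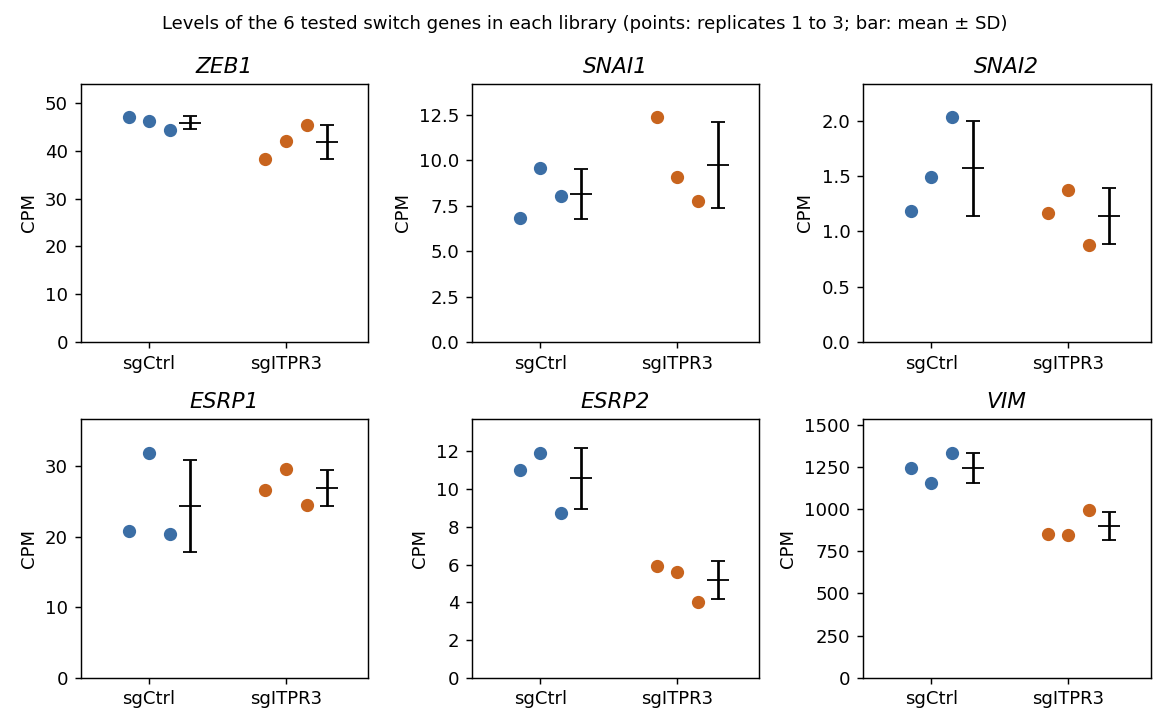
Level of each tested switch gene in CPM, with 1 point per library (sgCtrl blue, sgITPR3 orange, replicates 1 to 3 from left to right) and the mean ± SD of each group as a bar beside the points; each panel has its own linear axis from 0. The sgITPR3 points lie below every sgCtrl point for ESRP2 and VIM, and the groups overlap for ZEB1, SNAI1, SNAI2 and ESRP1.

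ZEB1 (ENSG00000148516, chr10:31318495-31529814, plus strand), a zinc finger repressor of junction and polarity genes, was the mesenchymal repressor with the most counts. Its level was 47.0, 46.2 and 44.4 CPM in sgCtrl and 38.3, 42.0 and 45.3 CPM in sgITPR3. The third sgITPR3 library lay inside the sgCtrl range and the other two below it. The log2 fold change was -0.13 (SE 0.082, 95% interval -0.31 to 0.043, edgeR adjusted p = 0.270), so the interval holds 0 and ends short of a 2-fold fall. ZEB1 did not pass under any of 13 other settings, which gave -0.19 to -0.071.

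ZEB2 (ENSG00000169554, chr2:144364364-144524583, minus strand), the paralogue of ZEB1 with the same type of zinc fingers, was close to the detection limit. It had 0, 5 and 3 counts in sgCtrl and 2, 4 and 12 counts in sgITPR3. The 12 counts of sgITPR3 replicate 3 were 0.619 CPM, against a floor of 3 counts at 0.155 CPM in that library. The other 5 libraries were at 5 counts or fewer, and the groups overlapped.

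SNAI1 (ENSG00000124216, chr20:49982999-49988886, plus strand) encodes Snail, a short-lived repressor of CDH1. Its level was 6.83, 9.60 and 8.01 CPM in sgCtrl and 12.4, 9.06 and 7.78 CPM in sgITPR3. Replicate 1 of sgITPR3 was the highest of all, and the other two lay among the sgCtrl libraries. The log2 fold change was 0.26 (SE 0.179, 95% interval -0.12 to 0.64, edgeR adjusted p = 0.327). Without sgITPR3 replicate 1 it was 0.049, and with the ALB level as a covariate it was -0.032. The sgITPR3 library with the most SNAI1 was also the one with the most ALB, and the part of hepatocyte RNA in it was not tested.

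SNAI2 (ENSG00000019549, chr8:48917604-48921740, minus strand) encodes Slug, the close relative of Snail. Its level was 1.18, 1.49 and 2.03 CPM in sgCtrl and 1.17, 1.38 and 0.876 CPM in sgITPR3. These rest on 17 to 38 counts per library, and the groups overlapped. The log2 fold change was -0.45 (SE 0.334, 95% interval -1.16 to 0.27, edgeR adjusted p = 0.365), an interval wide enough to hold both no difference and a fall of more than 2-fold. Without sgCtrl replicate 3 it was -0.22, and over the 13 other settings -0.62 to -0.22, none of which passed.

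TWIST1 (ENSG00000122691, chr7:19020991-19117672, minus strand), a basic helix-loop-helix factor of mesoderm and neural crest, had 1 count in sgCtrl replicate 1 and 0 in the other 5 libraries. A count of 0 allows up to 3 counts, which is 0.121 to 0.161 CPM in these libraries and covers counting error only. No fold can be given where both groups lie under that floor.

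The epithelial transcription factors among the 10 were hardly counted either. GRHL2 (ENSG00000083307, chr8:101492432-101669726, plus strand), which activates CDH1 and claudin genes, had 1 count in sgITPR3 replicate 2 and 0 elsewhere. OVOL1 (ENSG00000172818, chr11:65787022-65797219, plus strand), a zinc finger repressor of ZEB1, had 0, 0 and 3 counts in sgCtrl and 4, 4 and 0 counts in sgITPR3. GRHL2 was thus at or under the floor in all libraries, and OVOL1 above it in sgITPR3 replicates 1 and 2 by 1 count. Their relatives GRHL1 and OVOL2 were detected. GRHL1 stood at 9.43 ± 1.55 CPM in sgCtrl and 9.54 ± 0.759 CPM in sgITPR3 (log2 fold change 0.015, edgeR adjusted p = 0.954), and OVOL2 at 3.14 ± 1.12 and 3.18 ± 0.404 CPM (0.019, edgeR adjusted p = 0.967). Neither passed; both were named after their values were seen.

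ESRP2 showed the greatest difference of the 6. ESRP2 (ENSG00000103067, chr16:68229111-68238102, minus strand) encodes the second epithelial splicing regulatory protein, which binds GU-rich RNA beside exons. Its level was 11.0, 11.9 and 8.76 CPM in sgCtrl and 5.92, 5.62 and 4.02 CPM in sgITPR3. The highest sgITPR3 library lay below the lowest sgCtrl library. ESRP2 fell by 1.02 on the log2 scale (SE 0.174, 95% interval -1.39 to -0.65), a level 2.03-fold lower, with an edgeR adjusted p of 7.36e-04. It passed under each of the 13 other settings, with log2 fold changes of -1.26 to -0.88. The counts behind these values ran from 78 to 240 per library.

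Genes that overlap ESRP2 did not pass the test. NFATC3, on the opposite strand, covers the last 149 bases of ESRP2 and stood at a log2 fold change of -0.023 (edgeR adjusted p = 0.895). ENSG00000262160, on the same strand, shares 35 bases with it and stood at 5.90 ± 0.538 CPM in sgCtrl and 4.31 ± 0.226 CPM in sgITPR3 (-0.45, edgeR adjusted p = 0.0692). The sources used here do not say how reads in such overlaps were counted.

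ESRP1 (ENSG00000104413, chr8:94641074-94707466, plus strand), the paralogue with the same kind of RNA-binding domains, did not pass. Its level was 20.8, 31.9 and 20.4 CPM in sgCtrl and 26.6, 29.6 and 24.5 CPM in sgITPR3. Replicate 2 of sgCtrl stood above all other libraries, and the other two sgCtrl libraries stood below all of sgITPR3. The log2 fold change was 0.14 (SE 0.146, 95% interval -0.17 to 0.46, edgeR adjusted p = 0.519). Without sgCtrl replicate 2 it was 0.39 and passed (edgeR adjusted p = 0.0143), and with ALB as a covariate it was -0.18 (edgeR adjusted p = 0.402). The same sgCtrl library had the most ALB of its group, 169.7 CPM, and the part of hepatocyte RNA in its ESRP1 level was not tested.

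**Figure D2:**
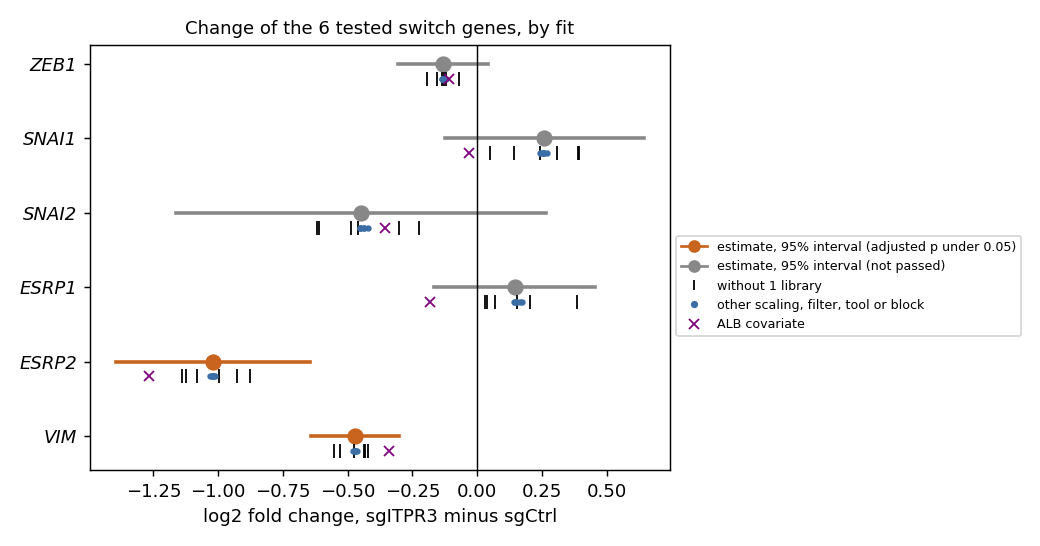
Log2 fold change (sgITPR3 minus sgCtrl) of the tested switch genes, with the edgeR estimate and its 95% interval as a dot and line (orange where the adjusted p was under 0.05, grey where not) and the values under other settings below it: ticks without 1 library, small dots for another scaling, filter, tool or block, and a cross with ALB as a covariate. The marks of ESRP2 and VIM all lie left of 0; the cross lies left of 0 for SNAI1 and ESRP1, whose estimates lie right of it.

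The balance between the splicing factors stood further toward ESRP1 in every sgITPR3 library. The ratio of ESRP1 to ESRP2 CPM was 1.88, 2.67 and 2.33 in sgCtrl and 4.50, 5.26 and 6.10 in sgITPR3. The groups did not overlap in this ratio, which was formed after both genes had been seen and is given without a test. ESRP2 alone already separated the groups, so the ratio is not a result apart from the ESRP2 fall. Tags are taken once per transcript near its 3′ end, so these CPM were not divided by length, and the ratio compares libraries and not absolute amounts. The sum of both levels was 31.8, 43.8 and 29.2 CPM in sgCtrl and 32.5, 35.2 and 28.6 CPM in sgITPR3, where the groups overlapped.

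**Figure D3:**
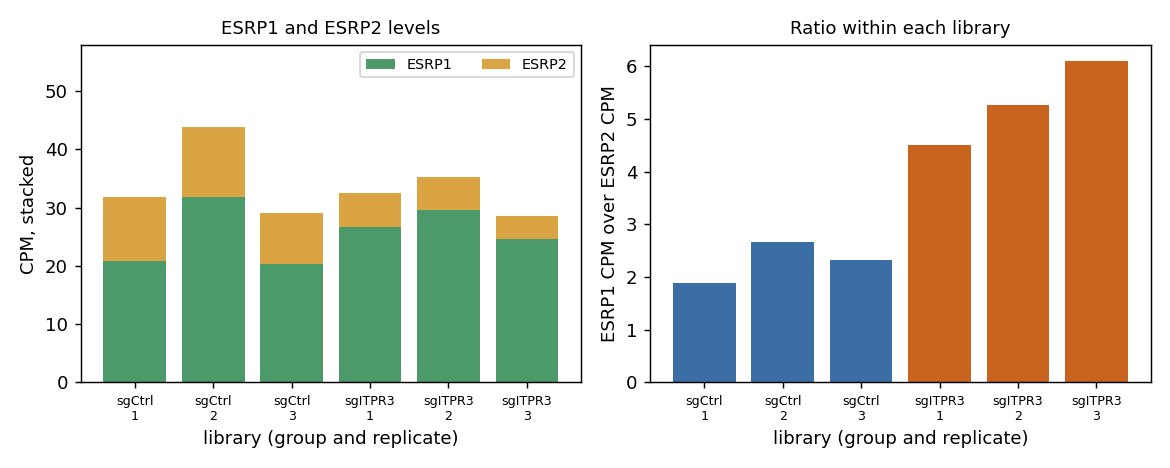
Left, ESRP1 and ESRP2 levels stacked for each library in CPM; right, their ratio in the same library (sgCtrl blue, sgITPR3 orange). The ratio is 1.88 to 2.67 in sgCtrl and 4.50 to 6.10 in sgITPR3, while the stacked sums overlap.

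VIM (ENSG00000026025, chr10:17228259-17237593, plus strand) encodes vimentin, the intermediate filament of mesenchymal cells. Its level was 1248, 1153 and 1336 CPM in sgCtrl and 851.6, 849.4 and 993.8 CPM in sgITPR3. Every sgITPR3 library lay below every sgCtrl library, although VIM remained a strongly counted gene in all 6, with at least 19279 counts. VIM fell by 0.47 on the log2 scale (SE 0.079, 95% interval -0.64 to -0.30), a level 1.39-fold lower, with an edgeR adjusted p of 6.60e-04. It passed under each of the 13 other settings at -0.55 to -0.34, the smallest difference being that with ALB as a covariate. As a share of all counts, VIM was 0.120%, 0.116% and 0.130% in sgCtrl and 0.0861%, 0.0877% and 0.101% in sgITPR3.

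Vimentin and ZEB genes are also expressed by stromal and blood cells, so markers of those cells were read beside them. Of 14 fibroblast and stellate cell markers, 8 were below 1 CPM in every library, among them COL1A2, DCN, PDGFRA and PDGFRB, and LUM was at 0. The summed level of the 14 was 284 to 306 CPM in sgCtrl and 228 to 257 CPM in sgITPR3, most of it SPARC (266 ± 10.2 and 211 ± 14.4 CPM). All 9 endothelial markers were below 1 CPM in every library, with CLEC4G and EMCN at 0. Of 15 macrophage and leukocyte markers, 11 were below 1 CPM in every library, with C1QA, C1QB and MS4A1 at 0. Their sum of 95.2 to 108 CPM in sgCtrl and 59.9 to 89.6 CPM in sgITPR3 was mostly CD74. Hepatocyte markers summed to 71.1 to 273 CPM in sgCtrl and 171.5 to 327 CPM in sgITPR3, with APOC3 at 0. Erythroid markers summed to 0.587 to 1.34 and 4.84 to 6.39 CPM. Of the 6 erythroid markers, the 2 tested were called higher by edgeR. They were so low in sgCtrl that they could pass the low-count filter mainly through sgITPR3. Their calls are therefore not read as a result. Hepatocyte markers gave 2 higher and 1 lower of 11 by edgeR, with a median log2 fold change of 1.08. DESeq2 called 1 of them higher and limma-voom 5. By edgeR, macrophage and leukocyte markers gave 0 higher and 2 lower of 4, and fibroblast and stellate cell markers 1 and 1 of 5. Of all genes, 11.6% were higher and 11.9% lower. These markers are human gene rows, while the host cells of the tumours were mouse cells, and the fate of mouse reads is not given. Low values therefore do not show how many host cells were present. In bulk RNA, fewer cells of a type and less RNA per cell cannot be told apart.

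Antisense transcripts overlap the starts of VIM and ZEB1. VIM-AS1, which covers 1727 bases of the VIM start on the other strand, fell from 3.35 ± 0.969 CPM in sgCtrl to 1.49 ± 0.825 CPM in sgITPR3 (log2 fold change -1.14, edgeR adjusted p = 0.0375). That call was lost without sgCtrl replicate 1 (-0.999), sgCtrl replicate 2 (-1.05), sgITPR3 replicate 2 (-1.26) or sgITPR3 replicate 3 (-0.78). ZEB1-AS1, over 1953 bases of the ZEB1 start, was at 6.10 ± 0.359 and 4.33 ± 0.903 CPM (-0.50, edgeR adjusted p = 0.0654), and passed without sgITPR3 replicate 3 (-0.68, edgeR adjusted p = 0.0270). The sources used here do not give the strand setting of the counting. Reads within the shared bases therefore cannot be assigned to a gene or to its antisense partner. The annotated 3′ ends of VIM, VIM-AS1, ZEB1 and ZEB1-AS1 lie outside the shared bases. Where the tags of each gene fell was not tested. VIM-AS1 had 11 to 76 counts per library, against 19279 to 25015 for VIM.

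MIR200CHG, the host transcript of miR-200c and miR-141 (the sequences printed above), had few counts. It was at 2.85, 5.27 and 2.14 CPM in sgCtrl and 2.94, 3.20 and 2.11 CPM in sgITPR3, and the groups overlapped. The log2 fold change was -0.31 (edgeR adjusted p = 0.501). It was 0.15 without sgCtrl replicate 2 and -0.91 with ALB as a covariate, where it passed (edgeR adjusted p = 0.0365). Its direction thus turned when 1 library was left out.

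Profiles most like those of the 2 genes that fell were sought among 10631 genes of at least 5 CPM, by the root mean square difference of centred log2 levels over the 6 libraries. Those nearest to ESRP2 were MMP15, a membrane-bound matrix metalloproteinase (0.117), GRIN2D, a glutamate receptor subunit (0.118), and LAMA3, a laminin chain (0.152). Those nearest to VIM were EZR, which ties membrane to actin (0.0286), CTNNAL1, a relative of alpha-catenin (0.0349), and IER3, an early response gene (0.0372). Their log2 fold changes were -0.92, -1.12 and -0.92 for the first 3 and -0.51, -0.46 and -0.43 for the others.

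Among the other transcription factors of mesenchymal transition, 2 rose and 1 fell of the 9 tested of 14, with a median log2 fold change of 0.0018 beside 0.000859 over all genes. That is 33.3% called, beside 23.5% of all genes. PRRX1, a homeobox gene of limb and craniofacial mesenchyme, rose from 0.622 ± 0.15 to 5.43 ± 1.58 CPM (log2 fold change 3.11, edgeR adjusted p = 5.11e-06). FOXC1, a forkhead gene, rose from 69.7 ± 0.867 to 110.6 ± 6.66 CPM (0.67, edgeR adjusted p = 8.80e-06). FOSL1, a subunit of AP-1, fell from 51.7 ± 7.30 to 26.4 ± 3.17 CPM (-0.97, edgeR adjusted p = 2.04e-05). SOX9 stood at -0.21 (edgeR adjusted p = 0.0578) and passed without sgCtrl replicate 2 (-0.28), under DESeq2, under limma-voom and with no filter on low counts, which gives 2 lower in that list. SOX9 was at -0.17 to -0.28 without 1 library and at -0.074 with the ALB covariate (edgeR adjusted p = 0.636). The count higher in the list was 4 with no filter on low counts and 3 under limma-voom.

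Among the other epithelial transcription factors, 3 rose and 1 fell of the 8 tested of 15 (50.0%, beside 23.5% of all genes), with a median of 0.017. FOXA2, a pioneer factor of endoderm, rose from 15.3 ± 1.54 to 39.6 ± 4.36 CPM (1.37, edgeR adjusted p = 4.79e-07). EHF, an epithelial ETS factor, rose from 15.6 ± 2.01 to 45.5 ± 6.55 CPM (1.55, edgeR adjusted p = 4.90e-07). KLF5, a factor of proliferating intestinal epithelium, rose from 69.2 ± 0.755 to 91.7 ± 5.35 CPM (0.41, edgeR adjusted p = 7.26e-04). ELF3, another epithelial ETS factor, fell from 22.8 ± 1.18 to 17.7 ± 1.62 CPM (-0.36, edgeR adjusted p = 0.0177), a call lost without sgCtrl replicate 3 (-0.33), without sgITPR3 replicate 2 (-0.30) and with ALB as a covariate (-0.31). FOXA2 is also a factor of liver cells. It rose by 1.28 to 1.42 on the log2 scale over the 13 other settings, the ALB covariate among them. The part of hepatocyte RNA in the FOXA2 level was not tested.

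Epithelial genes known to be repressed by ZEB1 or SNAI1 went in both directions: 8 fell and 4 rose of the 24 tested of 26, with a median of -0.29. These 12 are 50.0% of the tested genes, beside 23.5% of all genes. PKP3, a desmosomal plaque protein, fell from 55.8 ± 6.23 to 39.2 ± 3.50 CPM (-0.51, edgeR adjusted p = 0.00134). SPINT2, an inhibitor of membrane serine proteases, fell from 315 ± 47.8 to 214 ± 36.0 CPM (-0.56, edgeR adjusted p = 0.00367). CLDN1, a tight junction claudin, rose from 0.545 ± 0.433 to 2.47 ± 0.246 CPM (2.15, edgeR adjusted p = 0.00193). Its counts were 6, 21 and 5 in sgCtrl and 54, 68 and 45 in sgITPR3, so it passed the low-count filter through sgITPR3. Without sgCtrl replicate 2 it rose by 3.04 on the log2 scale, which rests on 6 and 5 counts in sgCtrl. The size of the CLDN1 rise is therefore uncertain. CDH1, the classical target, stood at 23.2 ± 4.33 and 17.7 ± 3.34 CPM and did not pass (-0.39, edgeR adjusted p = 0.0739). CDH1 passed without sgCtrl replicate 3 (-0.50, edgeR adjusted p = 0.0328), without sgITPR3 replicate 2 (-0.51, edgeR adjusted p = 0.0462), with no filter on low counts (edgeR adjusted p = 0.00608) and in the fit with the ALB covariate (-0.67, edgeR adjusted p = 0.00561). It was weaker and did not pass without sgCtrl replicate 2 (-0.23, edgeR adjusted p = 0.241) or sgITPR3 replicate 3 (-0.25, edgeR adjusted p = 0.259). The count lower was 5 without sgITPR3 replicate 3, and the count higher was 2 without sgCtrl replicate 1 or 3 and 1 without sgITPR3 replicate 2 or with ALB as a covariate.

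Of the 16 tested corepressors that ZEB and SNAI proteins recruit, 6.25% passed, beside 23.5% of all genes. Only CTBP1, the carboxy-terminal binding protein, passed, from 86.0 ± 2.41 to 113 ± 1.86 CPM (0.40, edgeR adjusted p = 4.72e-04), and 0 fell by edgeR, DESeq2 or limma-voom, with 3 lower at an unadjusted p under 0.05. KDM1A, the histone demethylase that SNAI1 recruits, stood at -0.22 (edgeR adjusted p = 0.0525).

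Splicing regulators other than the ESRP genes gave 3 higher and 2 lower of 18 (27.8%, beside 23.5% of all genes), with a median of -0.026. CELF2, an RNA-binding protein of CUG repeats, rose from 0.619 ± 0.372 to 2.46 ± 0.761 CPM (1.96, edgeR adjusted p = 0.00394). Its counts were 13, 19 and 4 in sgCtrl and 52, 45 and 64 in sgITPR3, so it passed the low-count filter through sgITPR3. HNRNPA1 fell from 347 ± 11.6 to 288 ± 13.8 CPM (-0.27, edgeR adjusted p = 0.00886), a call lost without sgITPR3 replicate 2 (-0.23) and with ALB as a covariate (-0.24). HNRNPA1 has many processed copies in the genome, and the counting of reads with several alignments is unknown. MBNL3, a muscleblind-like factor, fell narrowly (-0.61, edgeR adjusted p = 0.0340) and lost the call without sgCtrl replicate 1 or 3 or sgITPR3 replicate 1 or 2, at -0.67 to -0.56, under DESeq2 (adjusted p = 0.0509) and with ALB as a covariate (-0.55). RBM38, an RNA-binding protein, rose narrowly (0.37, edgeR adjusted p = 0.0368) and lost the call without sgCtrl replicate 1 or any sgITPR3 replicate, at 0.21 to 0.40, and with ALB as a covariate (0.39). The count higher was 1 without sgCtrl replicate 1, sgITPR3 replicate 1 or sgITPR3 replicate 2 and with ALB as a covariate. The count lower was 0 without sgITPR3 replicate 2 or with ALB as a covariate, and 1 under DESeq2 and without sgCtrl replicate 1 or 3 or sgITPR3 replicate 1.

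Among genes whose exons ESRP proteins are known to splice, 2 fell and 0 rose at the gene level of the 17 tested of 18. The 2 that fell are 11.8% of those tested, near the 11.9% of all genes that were lower. CD44, the hyaluronan receptor whose variable exons ESRP1 includes, fell from 241 ± 4.38 to 171 ± 7.68 CPM (-0.49, edgeR adjusted p = 7.65e-05). LSR, a tricellular junction protein, fell from 154 ± 21.1 to 113 ± 6.77 CPM (-0.45, edgeR adjusted p = 0.00231). DESeq2 and limma-voom also called 0 higher, 2 were higher at an unadjusted p under 0.05, and 1 passed without sgCtrl replicate 2 or 3. Gene totals of 3′ tags do not show which exons were included, so splicing itself was not tested.

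Intermediate filament genes other than VIM gave 5 lower and 1 higher of the 11 tested of 17, with a median of -0.33. That is 54.5% called, beside 23.5% of all genes. KRT19, a keratin of simple epithelia, fell from 535 ± 68.3 to 303 ± 13.6 CPM (-0.82, edgeR adjusted p = 1.04e-05). LMNA, the nuclear lamin, fell from 606 ± 60.2 to 422 ± 21.7 CPM (-0.52, edgeR adjusted p = 2.53e-04). KRT7, also a keratin of simple epithelia, fell from 1.75 ± 0.364 to 0.445 ± 0.0918 CPM (-1.96, edgeR adjusted p = 0.00169). Its counts were 37, 39 and 25 in sgCtrl and 8, 13 and 9 in sgITPR3, so it passed the low-count filter through sgCtrl. DES, the muscle filament gene, rose from 1.68 ± 0.720 to 3.89 ± 0.437 CPM (1.21, edgeR adjusted p = 0.00823) and did not pass with ALB as a covariate (0.79), where 3 of the list were lower. Without sgCtrl replicate 3, 2 of the list were higher. KRT7 and KRT19 are filaments of epithelial cells, so genes named for both cell states fell beside VIM.

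Mesenchymal effector genes were split between the directions, 8 lower and 5 higher of the 21 tested of 26, with a median of 0.052. That is 61.9% called, beside 23.5% of all genes. TNC, a matrix glycoprotein, fell from 33.7 ± 6.74 to 5.22 ± 0.809 CPM (-2.69, edgeR adjusted p = 2.92e-08). TGFBI, a secreted matrix protein, was at 700, 726 and 714 CPM in sgCtrl and 270, 260 and 327 CPM in sgITPR3. CDH11, a mesenchymal cadherin, rose from 9.77 ± 1.75 to 25.7 ± 1.16 CPM (1.39, edgeR adjusted p = 1.86e-06). FN1 and CDH2 were chosen after their values were seen. FN1, fibronectin, rose from 18.8 ± 1.68 to 34.0 ± 3.67 CPM (0.85, edgeR adjusted p = 3.80e-05). CDH2, N-cadherin, rose from 0.770 ± 0.565 to 2.26 ± 1.04 CPM with overlapping groups (1.54, edgeR adjusted p = 0.0322). Its counts were 14, 27 and 4 in sgCtrl and 77, 55 and 24 in sgITPR3, so it passed the low-count filter through sgITPR3. The CDH2 call was lost without sgCtrl replicate 1 (1.52) or 3 (1.11), without sgITPR3 replicate 1 (1.16) or 2 (1.56), and in the fit with the ALB covariate (0.55, edgeR adjusted p = 0.496). Both are classical partners of VIM as mesenchymal markers, and VIM fell in the same libraries. Other markers of this list fell as VIM did, such as AXL (log2 fold change -0.65), MMP14 (-0.59) and S100A4 (-0.42). They are among the 8 lower, and FN1 and CDH2 among the 5 higher.

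**Figure D4:**
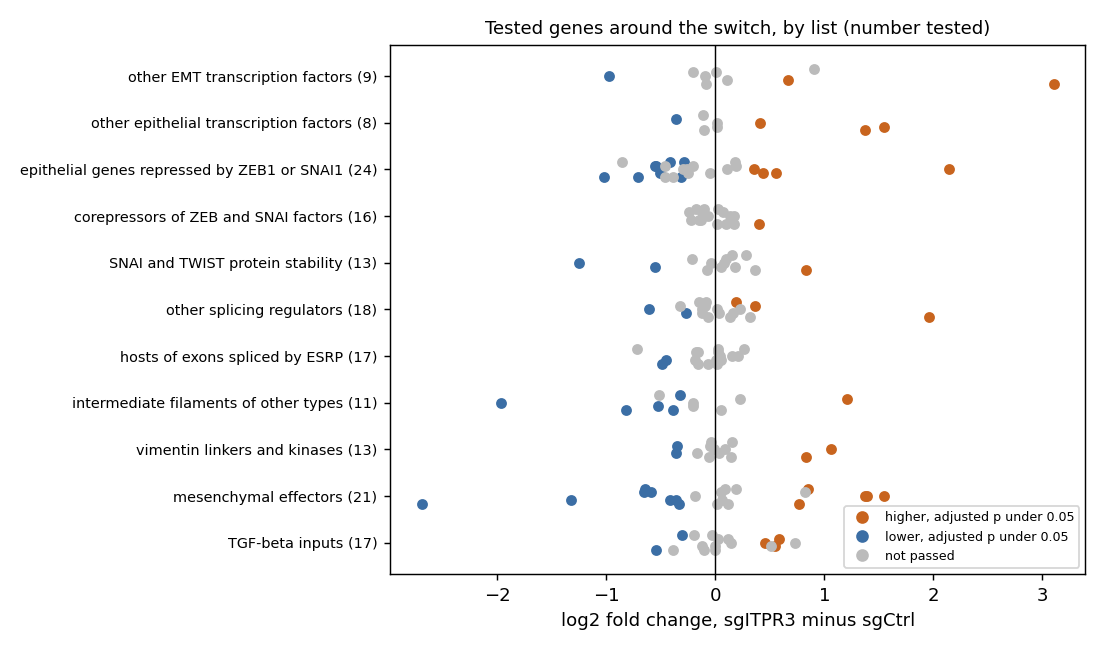
Log2 fold change (sgITPR3 minus sgCtrl) of the tested genes of each list around the switch, 1 point per gene, with the number tested in brackets (orange higher and blue lower at an edgeR adjusted p under 0.05, grey not passed; vertical offsets only separate points). Points of both colours appear in most lists, and the corepressors lie closest to 0 with 1 of 16 called.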

How the data were processed

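Polyadenylated RNA of 3 sgCtrl and 3 sgITPR3 libraries was sequenced with a Lexogen 3′ kit, per the labels. The authors deposited a table of raw counts. They worked with STAR 2.6.0a, featureCounts 1.6.3, DESeq2 and GRCh38, according to the submitters' processing notes. The sources used here give neither annotation nor strand setting, nor the fate of mouse reads and multiple alignments. The software was edgeR 4.0.16, limma 3.58.1 and R 4.3.3. Low genes were removed by filterByExpr (minimum count 10) and library sizes scaled by TMM. The edgeR quasi-likelihood F test used no covariates, with Benjamini-Hochberg adjustment over all 15804 genes and a threshold of 0.05. The procedure was tested on simulated data. Positions came from GENCODE 29 and sequences from RefSeq tables or that annotation.

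The 10 genes and all lists were chosen with earlier results of these data known. Named were the 10, ITPR3, up to 4 tested genes of the smallest p per list, and the 3 profiles most like each gene that passed. Where other genes appear, their values had been seen. A few genes named by this rule are not reported here. DUB3 and TWIST1-AS matched no identifier. Alternatives were RLE scaling, no filter, 1 CPM in 3 libraries, DESeq2 1.42.0, limma-voom, the replicate number as a block, ALB as a covariate and each library left out. Within a group, log2 levels of library pairs had correlations of 0.982 to 0.991, and no library repeated another.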

Additional observations from a re-analysis of the deposited data

How the results depend on the processing

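With ALB as a covariate, 1007 genes were higher and 985 lower in all, against 1835 and 1882. ALB itself averaged 75.0 CPM in sgCtrl and 165 CPM in sgITPR3, with overlapping groups. This fit therefore cannot fully separate the covariate from the group, and why a call was lost in it was not tested. Without 1 library the counts were 1135 to 2121 higher and 1196 to 2140 lower, lowest without sgITPR3 replicate 2. Of the 6 tested switch genes, 0 to 1 were higher when 1 library was left out (ESRP1 without sgCtrl replicate 2), and ESRP2 and VIM were lower in each of the 13 settings. Directions turned for SNAI1 (-0.032) and ESRP1 (-0.18) with ALB as a covariate. MIR200CHG ran from -0.56 to 0.15 without 1 library, above 0 only without sgCtrl replicate 2. MIR34AHG, at 0.059, was -0.28 with ALB as a covariate and -0.11 to 0.30 without 1 library, below 0 without sgCtrl replicate 1 (-0.11) or sgITPR3 replicate 1 (-0.046). GRHL1 was -0.22, OVOL2 -0.41 and NFATC3 0.019 with ALB as a covariate; without 1 library they ran from -0.085 to 0.15, -0.13 to 0.35 and -0.073 to 0.031. The cause was not tested. Deviations of same-numbered libraries correlated at -0.0503, 0.0130 and 0.0977, so the numbers were not taken to pair samples; with the replicate block 1896 genes were higher and 1981 lower, ESRP2 was at -1.03 and VIM at -0.47, and CDH1 passed at -0.39 (edgeR adjusted p = 0.0109). Of 286 list counts under other settings, 47 moved by more than 1.5 times. ZEB2, TWIST1, GRHL2 and OVOL1 did not pass the low-count filter and have no test in the main fit.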

Other observations

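Genes that act on SNAI and TWIST protein stability gave 1 higher and 2 lower of the 13 tested (23.1%, beside 23.5% of all genes). The count higher was 2 without sgCtrl replicate 3 or sgITPR3 replicate 3, and the count lower 1 without sgCtrl replicate 3 or sgITPR3 replicate 2 or with ALB as a covariate. PAK1, a kinase that phosphorylates Snail and vimentin, rose from 16.6 ± 2.39 to 29.7 ± 3.51 CPM (log2 fold change 0.84, edgeR adjusted p = 1.53e-04). LOXL2, a lysyl oxidase that binds Snail, fell from 74.9 ± 8.97 to 51.1 ± 5.54 CPM (-0.55, edgeR adjusted p = 8.43e-04). FBXL14, a ubiquitin ligase subunit for Snail, fell from 2.15 ± 0.452 to 0.909 ± 0.262 CPM (-1.25, edgeR adjusted p = 0.0141), a call lost without sgCtrl replicate 3 (-1.06) or sgITPR3 replicate 2 (-1.02) and with ALB as a covariate (-1.05).

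Among linkers and kinases of vimentin, 2 rose and 2 fell of 13 (30.8%, beside 23.5% of all genes). Without sgITPR3 replicate 2, or with ALB as a covariate, the counts were 1 and 1, and the count lower was also 1 without sgCtrl replicate 1 or 3 or sgITPR3 replicate 1. MACF1, a cytoskeletal crosslinker, fell from 333 ± 9.52 to 259 ± 13.1 CPM (-0.36, edgeR adjusted p = 0.00113). PRKCE, a protein kinase C, rose from 2.29 ± 0.827 to 4.79 ± 0.905 CPM (1.06, edgeR adjusted p = 0.00988), a call lost without sgITPR3 replicate 2 (0.89) and with ALB as a covariate (0.78). DST, a relative of MACF1, stood at -0.36 (edgeR adjusted p = 0.0201) and lost the call without any of 4 libraries, sgCtrl replicates 1 and 3 and sgITPR3 replicates 1 and 2, at -0.35 to -0.30, and with ALB as a covariate (-0.26).

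Inputs from TGF-beta, a known inducer of ZEB and SNAI genes, gave 3 higher and 2 lower of the 17 tested of 18. That is 29.4% called, beside 23.5% of all genes. SMAD3, which carries the signal to the nucleus, fell from 79.5 ± 4.06 to 54.4 ± 1.42 CPM (-0.55, edgeR adjusted p = 6.06e-05). BAMBI, a decoy receptor, rose from 72.1 ± 0.760 to 105.5 ± 9.996 CPM (0.55, edgeR adjusted p = 1.26e-04), and ID2, an inhibitor of helix-loop-helix factors, rose from 142 ± 9.0 to 194 ± 14.6 CPM (0.45, edgeR adjusted p = 5.91e-04). Without sgITPR3 replicate 3 the count higher was 5, and without sgCtrl replicate 1, sgITPR3 replicate 1 or sgITPR3 replicate 2, or with ALB as a covariate, the count lower was 1.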
